A study of Mus musculus with 4 samples.

Results

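The myosin light chains of striated muscle and the kinases that act on them were followed through the 5-AZA treatment of C3H10T1/2 cells. The group was chosen by gene symbol and holds 10 of the 21878 genes in the mRNA data, with 35 transcripts. It comprised the regulatory light chains Mylpf, Myl2 and Myl7, the essential light chains Myl1, Myl3, Myl4, Myl6 and Myl6b, and the kinases Mylk2 and Mylk4. C3H10T1/2 is a line of mouse mesenchymal stem cells derived from C3H embryos, and 5-AZA, short for 5-azacytidine, is built into nucleic acids in place of cytidine and lowers DNA methylation. RNA depleted of ribosomal RNA was sequenced in 4 samples, of which replicates 1 and 2 were untreated and replicates 101 and 102 had been given 5-AZA. The treated cells received 20 μM 5-AZA for 72 hours and then fresh growth medium for another 21 days, while the labels give no time in culture for untreated cells. Treatment and time in culture therefore cannot be told apart. Colonies resembling myotubes were also picked with cell rings in the study, and the sources used here do not say whether any picked cells were sequenced.

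Myosin, the motor of the sarcomere, is built from heavy chains that each carry an essential and a regulatory light chain on the neck. The light chains stiffen the neck and set the speed of the motor, and phosphorylation of the regulatory chain by a calmodulin-dependent kinase adjusts the force of contraction. Fast skeletal fibres use Myl1 and Mylpf, slow fibres and the ventricle use Myl3 and Myl2, the atrium uses Myl4 and Myl7, and Myl4 is also the essential chain of embryonic muscle. Myl6 belongs to smooth muscle and non-muscle myosin and is present in most cells.

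The sequences just upstream of the genes are given for the 3 light chains that rose most, for the highly expressed Myl6 and for Myl7, which was listed at 0. They were taken from RefSeq (GRCm38.p6), which listed a start for 9 of the 10 genes without pairing it with a transcript. Each line holds the 250 bases before the listed start, 5′ to 3′, with every E-box (CANNTG, the site bound by MyoD and related factors) in capitals.
Mylpf, chr7:127211358-127211607, + strand: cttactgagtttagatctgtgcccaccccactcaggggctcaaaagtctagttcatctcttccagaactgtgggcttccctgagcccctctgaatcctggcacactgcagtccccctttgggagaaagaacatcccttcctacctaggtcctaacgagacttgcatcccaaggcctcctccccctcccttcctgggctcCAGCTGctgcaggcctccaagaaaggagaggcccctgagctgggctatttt
Myl1, chr1:66945057-66945306, - strand: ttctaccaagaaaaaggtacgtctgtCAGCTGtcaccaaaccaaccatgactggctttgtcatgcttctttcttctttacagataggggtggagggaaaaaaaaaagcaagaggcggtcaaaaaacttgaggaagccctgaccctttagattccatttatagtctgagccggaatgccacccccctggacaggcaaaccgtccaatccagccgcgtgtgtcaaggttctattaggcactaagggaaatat
Myl4, chr11:104550413-104550662, + strand: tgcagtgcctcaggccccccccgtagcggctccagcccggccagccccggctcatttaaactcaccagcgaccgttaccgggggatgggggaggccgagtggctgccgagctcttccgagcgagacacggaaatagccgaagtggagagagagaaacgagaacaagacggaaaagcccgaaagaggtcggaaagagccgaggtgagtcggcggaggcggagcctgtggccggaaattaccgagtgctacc
Myl6, chr10:128493887-128494136, - strand: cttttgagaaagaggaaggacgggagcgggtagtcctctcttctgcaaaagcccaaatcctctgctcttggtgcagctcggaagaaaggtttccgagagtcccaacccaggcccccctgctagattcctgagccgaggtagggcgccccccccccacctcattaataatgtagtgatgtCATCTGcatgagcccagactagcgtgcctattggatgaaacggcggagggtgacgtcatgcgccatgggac
Myl7, chr11:5898783-5899032, - strand: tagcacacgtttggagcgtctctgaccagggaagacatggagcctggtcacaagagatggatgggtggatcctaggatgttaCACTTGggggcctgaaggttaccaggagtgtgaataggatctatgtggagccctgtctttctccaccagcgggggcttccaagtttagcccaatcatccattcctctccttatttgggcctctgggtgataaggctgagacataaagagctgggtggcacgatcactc
The windows of Mylpf and Myl1 each held 1 E-box, CAGCTG in both, beginning 51 and 224 bases before the start. The Myl4 window held no E-box. E-boxes, which read the same on both strands in this search, were present in 66.2% of the 32851 RefSeq windows of this length. The CG dinucleotide, the target of DNA methylation, occurred 1 time upstream of Mylpf, 6 times upstream of Myl1 and 23 times upstream of Myl4, against a median of 6 over all windows. A CArG box, the site of serum response factor, was present in the Myl7 window, in that of Myl3, in a second window of Myl6 (not shown) and in 1.47% of all windows. No window of the group held a MEF2 site (0.508% of all windows). These are matches of letters only.

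Expression was measured as FPKM, fragments scaled to transcript length and library size, which the authors deposited for each RefSeq transcript. The sum of FPKM over all mRNA transcripts ranged from 328410 to 361664 among the samples, and 16934 to 18258 transcripts reached 1 FPKM. Since FPKM does not preserve the counts of reads, the depth of single values is unknown. The transcripts of a gene were summed, and limma was fitted to log2(FPKM + 0.1) of the 13199 genes with a mean of at least 0.1 FPKM. Calls required an adjusted p below 0.05 together with a change of more than 2-fold. All fold changes refer to this log2 scale, which understates the change of low genes. The p-values rest on the spread between these 2 samples per group, which limma drew toward that of other genes at similar levels (the trend). Small p-values therefore rely in part on the spread of other genes. Without the trend, the adjusted p of Mylpf was 0.000302 in place of 2.79e-08 (limma). No exact permutation of 2 against 2 can give a p-value below 0.333. Where a 5-AZA replicate was left out, the remaining one was assumed to vary like the untreated samples. Within a gene, only the spread of the untreated samples then entered the fit. In bulk RNA, more cells of a type and more RNA per cell cannot be told apart.

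The marker genes placed the samples as follows. All 7 mesenchymal markers, led by Vim, exceeded 1 FPKM in at least 1 sample, with sums of 3341 and 3403 FPKM in the untreated and 1903 and 2229 FPKM in the 5-AZA samples. Most of this sum was Vim, and none of the 7 was called lower. Vim (log2 fold change -0.87), Fn1 (-0.65), Col1a1 (-0.52) and Col1a2 (-0.37) were lower at an adjusted p below 0.05 (limma) but by less than 2-fold. Pdgfra (0.74) and Eng (0.80) were higher in the same way. Thy1 was called higher (means of 0.682 and 12.3 FPKM, log2 fold change 3.98, adjusted p = 5.89e-06, limma). The 10 skeletal muscle markers summed to 1.34 and 0.892 FPKM in the untreated and to 464 and 734 FPKM in the 5-AZA samples, and 10 of 10 were called higher. Only Acta1, Des and Tnnt3 of these averaged at least 0.1 FPKM in the untreated samples. The others reached the mean needed for testing only through the 5-AZA samples, which fixed a higher 5-AZA mean for them. The count of 10 is therefore a description and no test. Of 10 cardiac markers 5, among them Nppa, Nppb and Tbx5, were listed at 0 in every sample, and 8 stayed below 1 FPKM. The cardiac sums were 2.45 and 2.54 FPKM against 3.47 and 6.34 FPKM. Most of the untreated sums was Gata4, the highest of the list by mean, with 2.13 and 2.17 FPKM. In the 5-AZA samples Gata4 was at 2.02 and 3.09 FPKM, so the groups overlapped, and it was not called (adjusted p = 0.584, limma). Tnni3, cardiac troponin I, was the cardiac marker called higher, with 0.321 and 0.273 FPKM in the untreated and 1.27 and 3.12 FPKM in the 5-AZA samples (log2 fold change 2.41, adjusted p = 0.00247, limma). Blood cell markers were almost absent, with Cd3e and Adgre1 listed at 0 throughout and a highest sum of 3.70 FPKM, nearly all of it Cd68. Cd68, the only blood cell marker tested, went from 1.16 and 1.47 FPKM to 2.27 and 3.69 FPKM. It was called higher (log2 fold change 1.09, adjusted p = 0.0191, limma). Adipocyte markers moved with the muscle genes, since 5 of 6 were called higher and their sums went from 45.3 and 30.1 FPKM to 1094 and 1504 FPKM. Of these 5, Cidec reached the mean needed for testing only through the 5-AZA samples. The part of the adipocyte markers in the results on light chains was not tested.

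Of the 10 genes, 6 were called higher after 5-AZA. None was called lower by limma, also with no gene lower at an unadjusted p under 0.05. Among all genes tested, 13.1% were called higher and 1.32% lower (1724 and 174 genes), a split that became 1041 and 886 with quantile normalization. A total of 8 passed the limit on low values, of which Myl2, Mylk2 and Mylk4 passed only through the 5-AZA samples. The median log2 fold change of these 8 was 3.39, against 0.05 over all genes tested. The limit itself fixed a higher 5-AZA mean for Myl2, Mylk2 and Mylk4. The median and the counts that include these genes are therefore descriptions and no test of the group. In 7 genes both 5-AZA values lay above both untreated values, an order shown by 36.8% of the genes tested, and the reverse order, shown by 25.4%, was found in none of the 10. The group without Myl6 summed to 2.13 and 2.63 FPKM in the untreated samples and to 763 and 1099 FPKM in the 5-AZA samples.

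**Figure D1:**
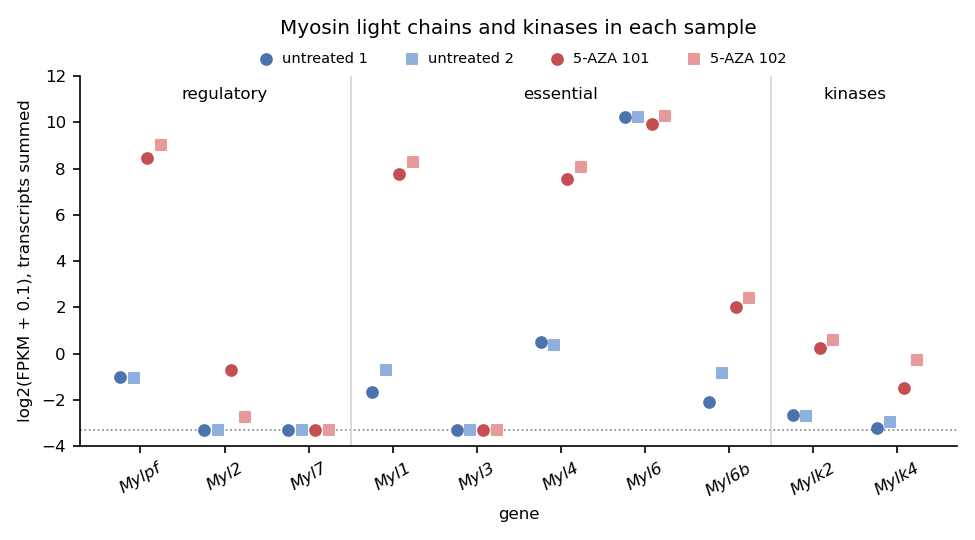
Level of each gene in each sample, as log2(FPKM + 0.1) of its summed transcripts (vertical axis, log2 scale) by gene and class. Blue points are untreated and red points 5-AZA samples (circles for replicates 1 and 101, squares for 2 and 102), and the dotted line marks a value of 0 FPKM. Mylpf, Myl1 and Myl4 show the widest gaps between the groups and lie next below Myl6 in the 5-AZA samples, while Myl3 and Myl7 stayed on the line.

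The regulatory light chain of fast skeletal muscle, Mylpf, had the largest log2 fold change of all 13199 genes tested with 0.1 FPKM added (the pseudocount). The rank depended on this setting, since with 0.01 FPKM the change was 10.08 for Mylpf and 10.30 for Mybph, a myosin binding protein. Its levels were 0.392 and 0.376 FPKM in the untreated samples and 353 and 517 FPKM in the 5-AZA samples. The groups lay far apart, with means of 0.384 ± 0.011 and 435 ± 116 FPKM (SD, n = 2). The log2 fold change was 9.79 ± 0.18 (SE, adjusted p = 2.79e-08, limma).

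The other regulatory chains of striated muscle stayed at or near 0. Myl2, the chain of slow fibres and the ventricle, was listed at 0 in both untreated samples and at 0.519 and 0.0493 FPKM in 5-AZA replicates 101 and 102. Both 5-AZA values were above 0 but differed widely from each other, and Myl2 was not called (adjusted p = 0.110, unadjusted p = 0.0358, limma). With a pseudocount of 0.01 FPKM it was called (adjusted p = 0.0480, limma). It also passed without replicate 102 (adjusted p = 0.0232), but there 1 value was set against untreated values without any spread, and the lower 5-AZA value was the one left out. Myl7, the atrial chain, was listed at 0 in all 4 samples.

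Among the essential chains, Myl1 of fast skeletal muscle had the third largest change of all genes at the pseudocount of 0.1 FPKM. It was listed at 0.215 and 0.517 FPKM in the untreated and at 220 and 308 FPKM in the 5-AZA samples. The groups did not overlap, and the log2 fold change was 9.20 ± 0.29 (SE, adjusted p = 3.13e-07, limma). Myl4, the atrial and embryonic chain, was the only called gene of the group above 1 FPKM before treatment. Its levels were 1.32 and 1.19 FPKM in the untreated and 185 and 267 FPKM in the 5-AZA samples. The log2 fold change was 7.36 ± 0.17 (SE, adjusted p = 1.64e-07, limma) and ranked 18 among all genes at this pseudocount. Its atrial partner Myl7 was listed at 0 in the same libraries.

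Myl6b, an essential chain described in slow skeletal and in non-muscle myosin, rose to far lower levels. It went from 0.135 and 0.463 FPKM to 3.93 and 5.22 FPKM, a log2 fold change of 3.67 ± 0.40 (SE, adjusted p = 0.000218, limma). The call was lost without replicate 101 (log2 fold change 3.87, adjusted p = 0.113), without replicate 102 (3.47, adjusted p = 0.128) and without the limit on low values (adjusted p = 0.0615). Myl3, the essential chain of slow fibres and the ventricle, was listed at 0 in all 4 samples.

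Myl6 was the highest of the 10 genes in every sample. Its levels were 1213 and 1216 FPKM in the untreated and 987 and 1228 FPKM in the 5-AZA samples. The groups overlapped, and the log2 fold change was -0.14 ± 0.13 (SE, 95% interval -0.44 to 0.16, adjusted p = 0.493, limma). A change of 2-fold lay outside this interval.

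Both kinases rose from traces to low levels. Mylk2, the skeletal muscle kinase that phosphorylates Mylpf, was at 0.0563 and 0.0517 FPKM in the untreated and at 1.08 and 1.40 FPKM in the 5-AZA samples. This was a log2 fold change of 3.11 ± 0.32 (SE, adjusted p = 0.000168, limma), and the replicates of each group lay close together. Mylk4, a kinase of the same family, went from 0.00698 and 0.0278 FPKM to 0.259 and 0.730 FPKM (log2 fold change 2.22 ± 0.47, SE, adjusted p = 0.00931, limma). It remained below 1 FPKM throughout, and its call was lost with quantile normalization (adjusted p = 0.197), without the limit on low values (adjusted p = 0.112) and with a pseudocount of 1 FPKM, where the change was 0.54. Mylk4 fell short of the limit on low values, and so was not tested, without replicate 102, with curated transcripts only and with a limit of 1 FPKM.

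In the 5-AZA samples the order of the levels was Myl6, Mylpf, Myl1, Myl4, Myl6b, Mylk2, Mylk4 and Myl2, with Myl3 and Myl7 at 0. Ranges over the replicates overlapped for the neighbours Myl1 and Myl4 and for Mylk4 and Myl2, and the other neighbours above 0 did not overlap. In the untreated samples Myl4 followed Myl6, and the ranges of Mylpf, Myl1 and Myl6b overlapped in turn. Among the 8 genes above 0, 7 were higher in replicate 102 than in 101, as were 74.4% of all genes tested, Myl2 being the exception. The ratio of 102 to 101 was 1.46 for Mylpf, 1.40 for Myl1, 1.44 for Myl4, 1.33 for Myl6b and 1.29 for Mylk2. The extremes were Mylk4 at 2.82 and Myl2 at 0.0949. It was 1.24 for Myl6, the median over all genes tested was 1.11, and that over the 10 skeletal muscle markers was 1.58. The direction shown by the genes of the group above 0, apart from Myl2, was not particular to muscle genes. It was shared by all 10 skeletal muscle markers, by all 7 mesenchymal markers and by most genes tested. The part of muscle content in these differences was not tested.

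The rise of Mylpf, Myl1 and Myl4 changed the makeup of each class of light chain. Myl6 made up 99.9% and 99.8% of the summed FPKM of the 5 essential chains in the untreated samples and 70.7% and 67.9% in the 5-AZA samples. Myl1 reached 15.7% and 17.0% and Myl4 13.3% and 14.8%, from at most 0.109% before. To the regulatory chains the smooth muscle chain Myl9, the non-muscle chains Myl12a and Myl12b and the lymphoid and testis chain Myl10 were added. In this class Mylpf went from 0.111% and 0.110% to 53.4% and 58.4%. Thus Mylpf exceeded the smooth muscle and non-muscle chains together in the regulatory class. In the essential class the striated chains together stayed below Myl6. No test was made on these shares, which are given per sample.

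**Figure D2:**
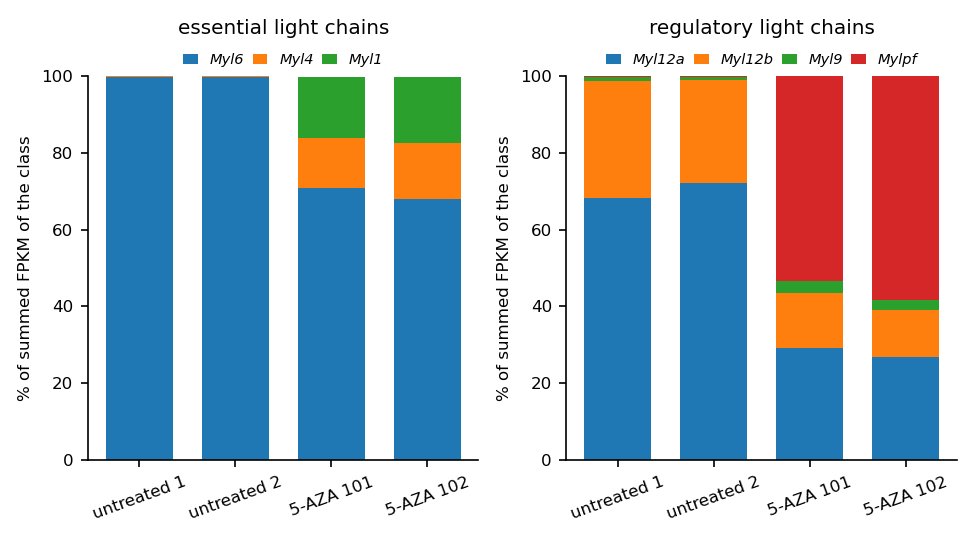
Share of each gene in the summed FPKM of the essential (left) and regulatory (right) light chains, in percent, with a bar per sample. Genes of at most 0.5% in every sample are left out. Myl6 fell from 99.8% or more to 67.9 to 70.7% of the essential chains, and Mylpf rose to 53.4 and 58.4% of the regulatory chains.

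The levels of the non-muscle chains were as follows. Myl12a was at 241 and 248 FPKM in the untreated and at 193 and 238 FPKM in the 5-AZA samples, and Myl12b at 107 and 91.5 FPKM against 94.7 and 108 FPKM. Neither was called, and the 95% intervals of the log2 fold change were -0.46 to 0.08 for Myl12a and -0.23 to 0.30 for Myl12b. Reads of these near-identical genes could be divided between them by the quantifier, and with curated transcripts only the mean share of Myl12a in the 5-AZA samples was 8.57% in place of 28.0%. Mylpf then reached a mean of 71.1% in place of 55.9%, and Myl4 a mean of 0.157% of the essential chains in place of 14.0%.

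The ratio of striated essential to regulatory chains after treatment depended on the transcripts counted. Myl1, Myl3, Myl4 and Myl6b together were 1.16 and 1.12 times the sum of Mylpf, Myl2 and Myl7 in 5-AZA replicates 101 and 102, and 0.594 and 0.571 times with curated transcripts only, where most of Myl4 is left out. Against the 9 sarcomeric heavy chains the ratios were 9.09 and 8.52 for the essential and 7.86 and 7.59 for the regulatory chains. With curated transcripts only, an alternative chosen after seeing the data, these became 11.4 and 10.4 and 19.3 and 18.3. Both replicates gave similar ratios within each set of transcripts, although replicate 102 was higher in each sum. FPKM is corrected for length, so these are ratios of transcript levels and not of protein.

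Myl1 makes a long (1f) and a short (3f) light chain from alternative starts, and its FPKM were divided among 4 transcripts. NM_001113387.1, variant 3f, was listed at 0.000163 and 0.340 FPKM in the untreated and at 182 and 258 FPKM in the 5-AZA samples, and NM_021285.3, variant 1f, at 0.215 and 0.151 FPKM and at 21.5 and 29.3 FPKM. Variant 3f was 8.47 and 8.81 times variant 1f after treatment. It made up 83.1% and 83.8% of the gene, with 9.81% and 9.51% for variant 1f and 7.08% and 6.68% for the predicted XM_011238451.2. In the untreated samples the share of variant 3f was 0.0761% and 65.7%, so the starting division could not be determined at these levels. The log2 fold changes were 10.01 for variant 3f (adjusted p = 0.00418, limma over transcripts), 6.49 for variant 1f (adjusted p = 0.00143) and 7.49 for XM_011238451.2 (adjusted p = 0.00213).

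Myl4 was carried almost wholly by predicted transcripts. XM_006532417.3 was at 1.07 and 0.841 FPKM in the untreated and at 163 and 241 FPKM in the 5-AZA samples, where it held 88.2% and 90.1% of the gene. The predicted XM_006532418.1 and XM_011248789.2 rose to 15.5 and 19.2 FPKM and to 4.96 and 4.10 FPKM, with log2 fold changes of 6.11 and 5.51. The curated NM_010858.4 was at 0.218 and nearly 0 FPKM before and at 1.40 and 2.99 FPKM after treatment, and was not called (adjusted p = 0.0992, limma). With curated transcripts only, the log2 fold change of Myl4 was 3.59 and the gene was still called. Its level therefore depended on which transcript models were counted.

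Mylpf was held to 99.6% and 99.7% by NM_016754.5 in the 5-AZA samples. The predicted XM_006507422.2 reached 0.957 and 1.02 FPKM and XM_006507421.2 at most 0.439 FPKM. In untreated replicate 2, XM_006507421.2 held 64.3% of the 0.376 FPKM of the gene, and in replicate 1 almost none. Myl6b was listed mostly under the predicted XM_017313917.1 in the untreated samples (60.7% and 63.6%) and under the curated NM_172259.1 in the 5-AZA samples (94.4% and 84.0%). The untreated shares divide a gene sum of only 0.135 and 0.463 FPKM, so the starting division of Myl6b is uncertain. Neither test of transcript shares called a difference for Myl6b. NM_001081044.2 of Mylk2 went from 0.0559 and 0.0514 FPKM to 0.617 and 1.32 FPKM and was not called on its own (adjusted p = 0.124, limma).

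Myl6 kept its main transcripts. NM_001317218.1 held 61.9% and 62.9% of the gene in the untreated and 57.8% and 55.8% in the 5-AZA samples, and NM_010860.4 held 35.4% and 35.5% against 38.7% and 41.3%. The ratio of the first to the second was 1.75 and 1.77 before and 1.49 and 1.35 after treatment, so the groups did not overlap. This difference was not called by either test of transcript shares. The smaller NM_001317220.1 went from 7.50 and 4.05 FPKM to 12.2 and 16.2 FPKM and was not called (adjusted p = 0.128, limma). The other 3 transcripts of Myl6, NM_001317219.1, NM_001317217.1 and XM_006513323.2, stayed between 0.0647 and 21.5 FPKM and were not called.

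Across the 35 transcripts, 21 passed the limit on low values, and 8 were called higher and none lower, while 2.1% of the 35557 transcripts tested were called higher and 0.262% lower. The 8 were 3 of Myl1, 3 of Myl4, and 1 each of Mylpf and Myl6b. Without 5-AZA replicate 101 none of the group was called (12 at an unadjusted p-value below 0.05), nor was any without replicate 102 (13) or without the limit on low values (16), and under these 3 settings no transcript of the whole data was called. Unequal change of transcripts within a gene was tested for 20 of the transcripts with limma's diffSplice, which called NM_016754.5 of Mylpf above the other transcripts of the gene (adjusted p = 0.0036) and XM_006507421.2 below them (adjusted p = 0.0168). Of 30641 transcripts tested in this way 0.555% were called above and 0.493% below the others. On simulated data diffSplice made more false calls than its adjustment allows, so limma was also fitted to the log2 ratio of each transcript to the others of its gene. This test called none of the 30641, including the 20 here, of which 13 had an unadjusted p-value below 0.05 (smallest adjusted p = 0.195).

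**Figure D3:**
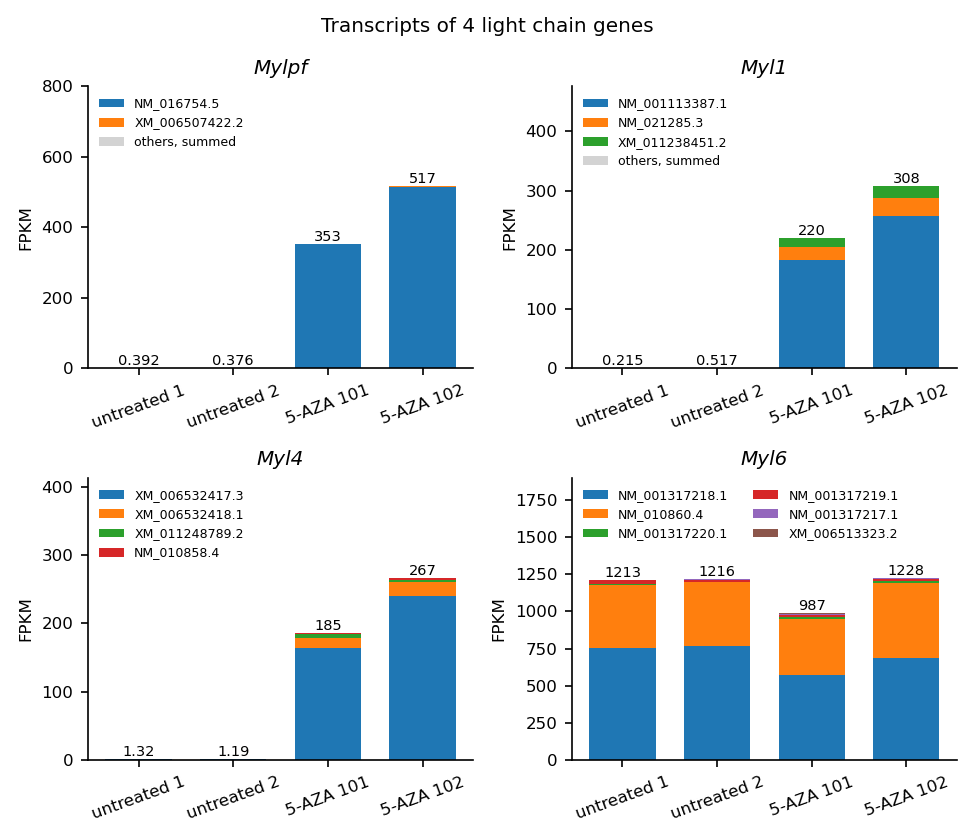
FPKM of the transcripts of Mylpf, Myl1, Myl4 and Myl6 in each sample, stacked, with the sum over the gene printed on each bar. Transcripts below 1 FPKM in every sample are summed in grey. Variant 3f (NM_001113387.1) formed 83.1 and 83.8% of Myl1 and a predicted transcript 88.2 and 90.1% of Myl4 in the 5-AZA samples, while Myl6 was mostly NM_001317218.1 and NM_010860.4 in every sample.

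The 36 other genes of the pathway were grouped by role, and 31 of them were tested. Of these 16 were called higher and none lower by limma (at an unadjusted p under 0.05 there were 17 higher and 5 lower). Among the 16, only Myl9 and Mylk averaged at least 0.1 FPKM in the untreated samples. The others passed the limit on low values only through the 5-AZA samples, which fixed a higher 5-AZA mean for them. The count of 16 is therefore a description and no test of the pathway. Calls of lower came with other settings, where Myh14 was called lower after centring on sample medians, with quantile normalization and with eBayes without trend. The sarcomeric heavy chains rose in 7 of 9 genes, and Myh7b and Myh13 fell short of the limit on low values. All 7 passed this limit only through the 5-AZA samples, so the direction of their means was fixed by it. Myh3, the embryonic heavy chain, was at 0.0460 and 0.0265 FPKM in the untreated and at 26.8 and 38.8 FPKM in the 5-AZA samples (log2 fold change 7.89, adjusted p = 3.00e-07, limma). It was followed by the fast chain Myh1 with 10.2 and 16.6 FPKM and the slow chain Myh7 with 3.12 and 5.44 FPKM after treatment. Lower levels were reached by Myh4 (fast, 2.57 and 3.35 FPKM), Myh8 (perinatal, 1.25 and 2.70 FPKM), Myh2 (fast, 0.683 and 0.748 FPKM) and Myh6 (atrial, 0.309 and 0.385 FPKM). The heavy chain genes are close in sequence, so the quantifier could divide reads between them. With curated transcripts only, the log2 fold change was 5.24 for Myh3 and 6.54 for Myh1, in place of 7.89 and 6.92. The order of these 2 changes thus depended on the transcripts counted. The call of Myh6 was lost with quantile normalization, and those of Myh6 and Myh2 with a pseudocount of 1 FPKM.

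Genes for the assembly of the thick filament rose in 5 of 6 cases. These 5 too passed the limit on low values only through the 5-AZA samples, which fixed the direction of their means. Mybph, a myosin binding protein, was listed at 0 in both untreated samples and at 10.7 and 14.8 FPKM in the 5-AZA samples (adjusted p = 7.62e-07, limma), and the same held for Mybpc2 with 1.16 and 1.67 FPKM. The myosin methyltransferase and chaperone partner Smyd1 reached 7.28 and 11.4 FPKM, the myosin chaperone Unc45b 4.60 and 6.88 FPKM, and Mybpc1 1.68 and 2.85 FPKM. The cardiac Mybpc3 stayed at or below 0.00733 FPKM in every sample. The call of Unc45b was lost without replicate 101 (log2 fold change 5.30, adjusted p = 0.0543) or 102 (4.73, adjusted p = 0.0619), against 5.01 with both, and that of Mybpc1 with curated transcripts only (adjusted p = 0.148).

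Among the genes outside the sarcomere, 4 were called higher. Myl9, the regulatory chain of smooth muscle, rose from 4.50 and 3.45 FPKM to 19.3 and 22.0 FPKM (log2 fold change 2.36, standard error 0.16, adjusted p = 1.48e-05, limma), and Myl10 was listed at 0 throughout. The smooth muscle kinase Mylk went from 3.33 and 1.48 FPKM to 11.2 and 10.9 FPKM (log2 fold change 2.26, adjusted p = 0.000900, limma), and was thus above Mylk2 in both groups. The cardiac kinase Mylk3 reached 0.575 and 0.603 FPKM and was called with a log2 fold change of 1.82. Ppp1r14a, an inhibitor of myosin phosphatase in smooth muscle, rose from 0.156 and 0 FPKM to 1.57 and 2.95 FPKM (adjusted p = 0.000575, limma), and the other 4 phosphatase genes were not called. The highest of these, the catalytic subunit Ppp1cb, was at 93.7 and 91.0 FPKM against 76.6 and 76.5 FPKM (adjusted p = 0.0636, limma). The calls of Myl9, Mylk, Mylk3 and Ppp1r14a were each lost without either 5-AZA replicate, with adjusted p-values from 0.0550 to 0.176. The log2 fold changes without replicate 101 and without 102 were 2.45 and 2.26 for Myl9, 2.24 and 2.27 for Mylk, 1.85 and 1.80 for Mylk3, and 4.25 and 3.38 for Ppp1r14a. Without the limit on low values those of Mylk and Ppp1r14a were lost too, and that of Mylk3 with a pseudocount of 1 FPKM, quantile normalization or curated transcripts only.

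Calmodulins and non-muscle heavy chains were not called. Calm2, the highest of the calmodulins, was at 364 and 350 FPKM in the untreated and at 292 and 303 FPKM in the 5-AZA samples. The kinase Rock2 (log2 fold change 0.82, adjusted p = 0.000476, limma) passed the adjusted p but not the 2-fold limit. Myh9, the main non-muscle heavy chain, was at 100.4 and 91.7 FPKM against 75.0 and 90.1 FPKM, a log2 fold change of -0.22 with a 95% interval of -0.49 to 0.04. Of 8 smooth muscle markers 3 were called higher and none lower, namely Tagln (means of 0.425 and 11.9 FPKM, log2 fold change 4.53), Cnn1 (0.0106 and 1.15 FPKM, 3.50) and Synpo2 (0.0837 and 1.38 FPKM, 2.99). Cnn1 and Synpo2 passed the limit on low values only through the 5-AZA samples. The 3 called markers moved with Myl9, Mylk and Ppp1r14a, and their part in those results was not tested. Among the markers not called or not tested were Acta2 at 185 and 191 FPKM against 196 and 273 FPKM and Myh11, which reached at most 0.152 FPKM.

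**Figure D4:**
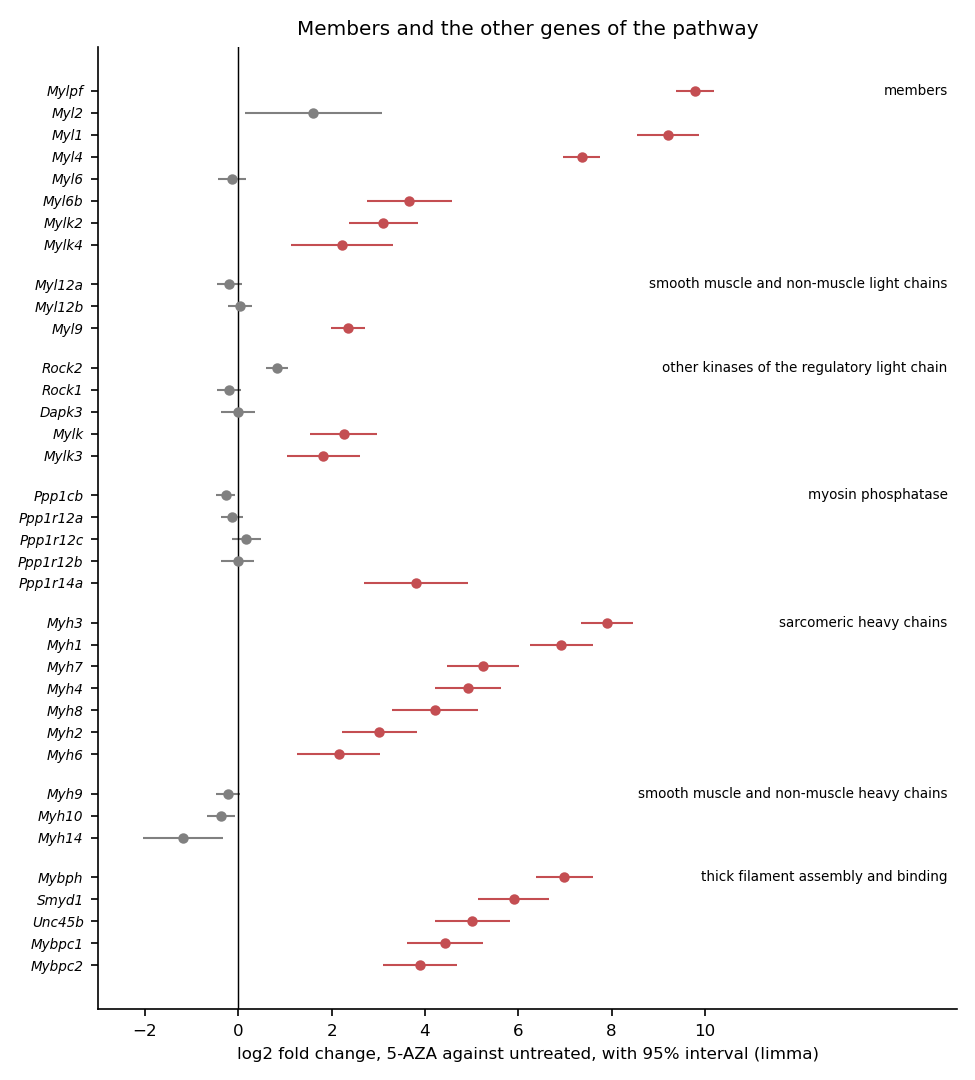
Log2 fold change of 5-AZA against untreated samples (horizontal axis) with its 95% interval from limma, for genes that passed the limit on low values, by role, without the calmodulins. Red points were called higher and grey points were not called. The positions of Myl2, Mybph and Mybpc2, listed at 0 in both untreated samples, depend on the pseudocount. Mylpf lies farthest right at 9.79, and Myl6, Myl12a and Myl12b lie around 0.

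Genes with levels most like those of Mylpf were sought by Euclidean distance of log2(FPKM + 0.1) over the 4 samples. The nearest outside the group was Acta1, skeletal alpha-actin, at a distance of 1.35, with 0.369 and 0.211 FPKM in the untreated and 182 and 312 FPKM in the 5-AZA samples. It was followed by Tnnc2, troponin C of fast muscle (2.51), Plac8 (2.94), Tnnt3, troponin T of fast muscle (2.98), and Wdr31 (3.11). Within the group Myl1 lay at 1.26 and Myl4 at 2.49. Plac8 and Wdr31 had 142 and 132 FPKM and 108 and 145 FPKM in the 5-AZA samples, and 0.894 to 1.30 FPKM in the untreated samples.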

How the data were processed

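RNA from 2 untreated and 2 5-AZA samples was compared, and both groups entered every fit. The libraries were stranded. Reads were trimmed with Trimmomatic by the authors, and the submitters' processing notes also name HISAT2, Bowtie2 2.2.9, eXpress 1.5.1 and the build mm9, without their roles. The authors deposited FPKM values per RefSeq mRNA transcript, and RPM values per circRNA, which were used only to look for circRNAs of these genes. FPKM are estimates that divide reads among transcripts sharing exons, so isoform levels are less certain than gene sums. The authors' DESeq test needs counts and could not be applied.

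Transcripts were summed per gene, and limma 3.58.1 (lmFit, eBayes with trend) in R 4.3.3 was run on log2(FPKM + 0.1) wherever the mean over samples reached 0.1 FPKM, with Benjamini-Hochberg adjustment over all features tested. Symbols of the lists were matched to the data, with Tmem8c standing for Mymk. The genes, the pathway and marker lists and the tests were chosen with earlier results of these data known. Named are the 10 genes, every called gene of the pathway, the highest gene of each set without a call, and the 5 genes nearest to Mylpf. Further marker and pathway genes were named after their values were seen. Tests were tried on simulated data. Other pseudocounts, limits on low values, scalings, eBayes without trend, curated transcripts only and the omission of each sample were tried as alternatives. The fit to transcript ratios was chosen after seeing the data. The lncRNA values and protein sequences were not used here. Some genes of the lists are not reported here by name.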

Additional observations from a re-analysis of the deposited data

How the results depend on the processing

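With each sample left out in turn, 5 to 6 genes of the group, 11 to 16 pathway genes, 0 to 6 transcripts (0 without either 5-AZA replicate) and 0 to 2 transcript shares were called. Mylpf, Myl1, Myl4 and Mylk2 stayed called under every alternative that tested them, with log2 fold changes of 8.27 to 10.29, 7.59 to 9.69, 3.59 to 7.62 and 1.08 to 4.28. Without a limit on low values 0 transcripts and 6 transcript shares were called. The number of transcript shares called by diffSplice, 2 as reported, was 0 with a pseudocount of 0.01 FPKM, 11 with 1 FPKM, 0 with a limit of 1 FPKM and 0 with the fit to transcript ratios. The cause was not tested. Curated transcripts alone gave mean 5-AZA shares of 18.0% for Myl1 (16.4% as reported) and 71.1% for Mylpf.

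Over all genes 1724 were called higher and 174 lower, against 1041 and 886 with quantile normalization, which moved the median log2 fold change from 0.05 to -0.12. A pseudocount of 1 FPKM gave 875 and 86, no limit 1179 and 83, a limit of 1 FPKM 845 and 122, and the omission of 5-AZA replicate 101 or 102 gave 925 and 52 or 733 and 70. No paired analysis was possible because the replicate numbers 1 and 2 and 101 and 102 are not shared. The number of samples limits every result, and a gene not called has not been shown to be unchanged.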

Other observations

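None of the 4295 circRNAs in the deposited data was assigned to a gene of this group. The remaining marker lists moved in different directions. Of 5 chondrocyte markers 3 were called lower and none higher, with sums of 96.7 and 86.2 FPKM in the untreated and 11.4 and 18.4 FPKM in the 5-AZA samples, led by Col2a1, the collagen of cartilage. Of 4 endothelial markers 2 were called higher, with sums of at most 1.79 FPKM and Kdr at 0 in every sample. Of the 2 called, Cdh5 passed the limit on low values only through the 5-AZA samples.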
